A study of Mus musculus with 4 samples.

Results

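The ribosomal protein genes are the 87 of 27998 features in these mouse bone marrow libraries whose symbol is Rpl or Rps with a number, together with Rplp0, Rplp1, Rplp2 and Rpsa. The 16 symbols with the pseudogene suffix -ps and the 10 symbols of S6 kinases (Rps6k) were left out, and no measured value chose a gene. They comprise 43 proteins of the large subunit, 31 of the small subunit, the 3 stalk proteins Rplp0, Rplp1 and Rplp2, 9 paralogues or retrocopies, and Rps19bp1, which binds Rps19 and is not itself a ribosomal protein. At least 1 UMI (unique molecular identifier, the mark of a single captured messenger RNA) was counted for 86 of the 87 in the kept cells. Rpl10l, a copy of Rpl10, had 0 UMIs, which allows a share of up to 0.000384% of Rpl10l plus Rpl10 UMIs. All 86 detected symbols passed the filter on low counts in the test across neutrophil stages, and 83 to 86 passed it in the tests by genotype.

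The libraries were 2 from Idh1-R132H mice and 2 from Idh1-WT mice, each made from the marrow of 1 transplanted animal with 10x 3′ droplet chemistry. Idh1 encodes the cytosolic isocitrate dehydrogenase, and R132H is a substitution in its active site. Donor mice received tamoxifen for 5 days, which recombined a heterozygous Idh1-R132H allele and an EYFP reporter (a yellow fluorescent protein), and 2 weeks later EYFP+ lineage-negative marrow cells were transplanted into irradiated hosts with no helper marrow. Marrow was taken 16 weeks after transplantation, and 4000 live EYFP+ cells from each of 3 gates (CD45.1+ total cells, LSK and LK progenitors) were sorted into 1 tube per mouse. The numbers of cells per group therefore follow the sort. The design text gives this scheme once and does not describe the Idh1-WT donors separately; the Cre driver, the ages and the number of donors are not given in the sources used here. Because separate donors are not stated, p-values measure the spread between these libraries only, and an exact permutation of 2 libraries against 2 cannot give a two-sided p below 0.333. A 3′ count does not distinguish the mutated from the normal Idh1 transcript, so the genotype was taken from the labels.

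The libraries held 47025425 and 53387528 UMIs for Idh1-R132H and 56353466 and 40364701 UMIs for Idh1-WT, with 3842 and 4430 kept cells against 4503 and 3505. Median depth per cell was 8449 and 8573 UMIs in Idh1-R132H against 8707 and 7228 UMIs in Idh1-WT. Of the 16280 kept cells, 88.3% joined 1 of 15 groups by marker genes that include no ribosomal protein. The summed level of a marker list was highest in its own group for all lists but the lymphoid-primed one, which was highest in monocyte-like cells, and the dendritic one, which was highest in mature B-like cells. In the median cell, however, the Ltf-high list was at 1496 per 10000 UMIs in the Fcnb-high and 1279 in the Ltf-high group. The Fcnb-high list was at 180 and 49.6 in these groups. The Elane-high list was at 22.2 in the median Fcnb-high cell, against 431 in the median Elane-high cell. Libraries Idh1-R132H 1 and Idh1-WT 1 shared 345 cell barcodes, 8.98% of the smaller library, whereas the other pairs shared 13 to 33. In 327 of these 345 the copy in Idh1-WT 1 was the low one, with a median of 577 UMIs against 27151 UMIs in Idh1-R132H 1, and 243 of the low copies lay in the Elane-high group of Idh1-WT 1. Both sex-linked transcripts Xist and Kdm5d were present in every library; Kdm5d was at 3.17 and 3.26 CPM (UMIs scaled to 1 common total per library, not per gene length) in Idh1-R132H against 0.569 and 1.35 CPM in Idh1-WT.

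Ribosomal proteins wrap and stabilise the ribosomal RNAs, and each assembled ribosome carries a single copy of nearly all of them. Their messenger RNAs belong to the TOP class, which begin with a C followed by a run of pyrimidines at the very first transcribed bases; this stretch is read by Larp1 and by growth signalling through mTOR. Haematopoietic progenitors make ribosomes at a high rate, and neutrophils reduce protein synthesis and stop dividing as they fill their granules and condense their nuclei. A few ribosomal proteins have paralogues with a restricted tissue range, such as Rpl3l in heart and skeletal muscle and Rpl39l in testis.

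The start of transcription is shown here for the genes on which the maturation results turn, because the TOP run lies there. Each line gives 15 bases before the annotated RefSeq start and 15 from it, 5′ to 3′ on the strand of the gene, in build GRCm38.p6; capitals mark a C followed by at least 4 further C or T that begins within 1 base of the start. Rps27 lies at chr3:90213634-90213663 (minus strand), its retrocopy Rps27rt at chr9:114982725-114982754 (minus), Rps9 at chr7:3704026-3704055 (plus) and Rpl37 at chr15:5116598-5116627 (plus), and these were among the symbols with the smallest falls or none.
Rps27: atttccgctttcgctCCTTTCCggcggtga
Rps27rt: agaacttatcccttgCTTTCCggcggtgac
Rps9: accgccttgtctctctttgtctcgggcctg
Rpl37: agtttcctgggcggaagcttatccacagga
Rpl36al lies at chr12:69184053-69184082 (minus), Rps2 at chr17:24720048-24720077 (plus), Rpl35 at chr2:39005117-39005146 (minus) and Rpl15 at chr14:18270972-18271001 (minus), and these were among the genes that fell most.
Rpl36al: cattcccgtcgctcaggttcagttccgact
Rps2: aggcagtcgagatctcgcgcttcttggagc
Rpl35: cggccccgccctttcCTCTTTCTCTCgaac
Rpl15: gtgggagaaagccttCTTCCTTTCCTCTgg
Both forms of start are shown in each set; the windows are examples and give no tally. The windows of Rps27 and Rps27rt shared an unbroken stretch of 14 bases from the first or second transcribed base on. RefSeq promoters matched 66 of the 87 symbols. The run was at the start in 25.6% of the 78 promoters of these genes and in 6.32% of all 32851 promoters, and it began within 5 bases of the start in 41.0% against 18.4%. Annotated starts can differ from the start used in marrow, and a missing run says only that the letters are not in this window.

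Ribosomal protein UMIs made up between 30.0% and 38.2% of all UMIs in every library of 11 of the 15 groups, and were lower in monocyte-like cells and in the Fcnb-high, Ltf-high and Retnlg-high neutrophil groups. Stem and multipotent progenitor-like cells held 36.5% and 37.1% in Idh1-R132H and 36.6% and 37.0% in Idh1-WT. T or NK-like cells were at 37.6% and 37.6% in Idh1-R132H against 38.2% and 37.1% in Idh1-WT, and erythroid progenitor-like cells at 36.4% and 37.0% against 36.4% and 36.9%. The genotypes overlapped in these 3 groups. Monocyte-like cells held 23.3% and 23.7% in Idh1-R132H and 23.3% and 22.2% in Idh1-WT, below the F13a1-high monocyte progenitor-like cells at 34.0% and 33.5% against 33.2% and 31.6%. The fall within the monocyte branch was therefore smaller in size than the one within the neutrophil branch, described next; the difference between the branches was not tested.

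**Figure D1:**
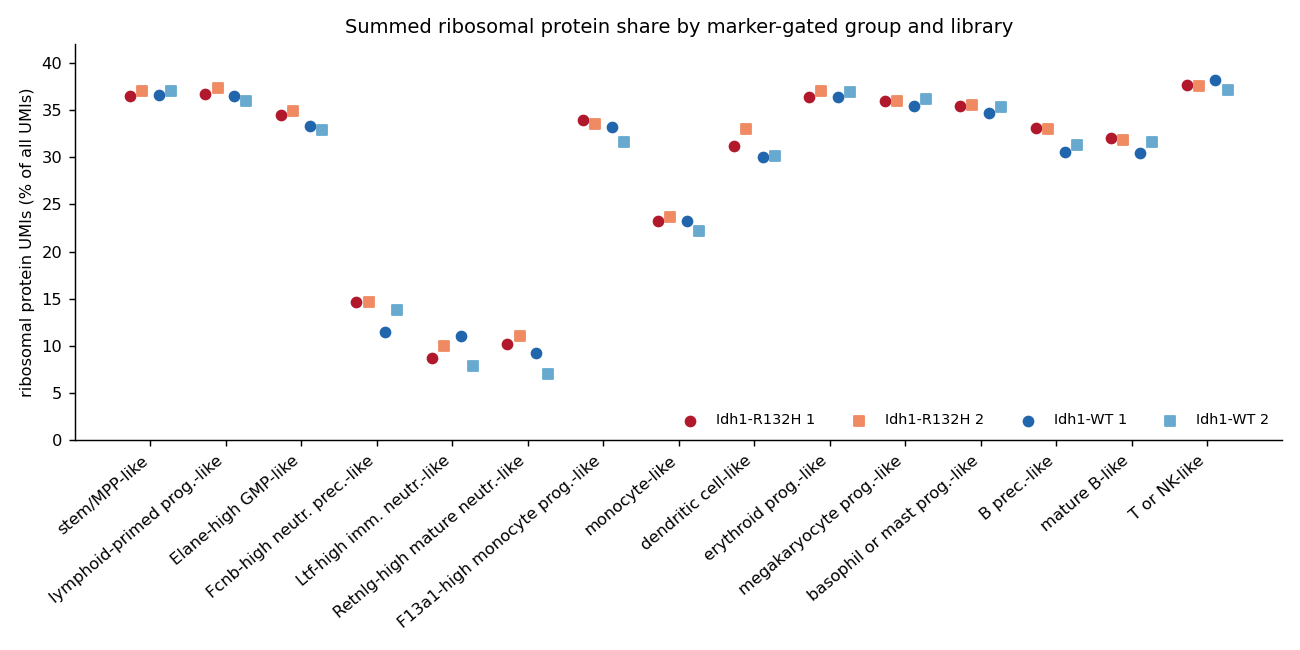
Summed ribosomal protein UMIs as a percentage of all UMIs (vertical axis, linear from 0) in each of the 15 marker-gated groups, 1 point per library, red and orange for Idh1-R132H and dark and light blue for Idh1-WT. Stem and multipotent progenitor-like cells averaged 36.8% over the 4 libraries, and the Ltf-high and Retnlg-high neutrophil groups averaged 9.41% and 9.38%.

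Along neutrophil maturation the ribosomal protein share fell at the step from the Elane-high to the Fcnb-high group. Elane-high granulocyte-monocyte progenitor-like cells held 34.5% and 34.9% in Idh1-R132H and 33.3% and 32.9% in Idh1-WT. In Fcnb-high neutrophil precursor-like cells the share was 14.6% and 14.6% in Idh1-R132H and 11.5% and 13.8% in Idh1-WT. No Fcnb-high library came near an Elane-high one. The share was 8.70% and 10.0% in Ltf-high immature neutrophil-like cells of Idh1-R132H and 11.1% and 7.85% in those of Idh1-WT. In Retnlg-high mature neutrophil-like cells it was 10.2% and 11.1% in Idh1-R132H and 9.25% and 7.0% in Idh1-WT. The libraries of the last pair of stages overlapped.

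The cell in the middle of each group gave a steeper picture than the sums. The median Elane-high cell held 7309 and 7038 ribosomal protein UMIs in Idh1-R132H and 6650 and 7236 in Idh1-WT. The median Fcnb-high cell held 1091 and 1264 in Idh1-R132H and 1002 and 984 in Idh1-WT, and the median Ltf-high cell 153 and 185 against 177.5 and 146. The median Retnlg-high cell held 86 and 89 such UMIs in Idh1-R132H and 93 and 78 in Idh1-WT. All UMIs of the median cell fell with maturation too, at 20535 in Elane-high, 12258 in Fcnb-high, 3624 in Ltf-high and 1500 in Retnlg-high cells, averaged over the 4 libraries. Less RNA per cell and a lower capture per cell cannot be told apart from these counts.

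As a share of the cell, the median was 34.7% and 35.0% in Elane-high cells of Idh1-R132H against 32.9% and 33.1% in those of Idh1-WT. It was 8.77% and 10.1% against 8.33% and 8.61% in Fcnb-high cells, where the 10th and 90th percentiles of all cells lay at 5.26% and 25.7%. This was the widest spread of the 5 stages, and 15.6% of the Fcnb-high cells lay near the gate's limits. Ltf-high cells were at 4.64% and 5.15% against 5.24% and 4.45%, and Retnlg-high cells at 5.39% and 6.08% against 6.05% and 5.06%. The sums of the last stages rested on few cells: 108 Ltf-high and 26 Retnlg-high cells with over 3 times the median UMIs of their library held 50.6% and 48.1% of the ribosomal protein UMIs of their groups. The median share of these deep cells was 18.0% and 31.1%, against 4.84% and 5.64% in the other cells of the same groups, and whether they are doublets was not tested. Free RNA was a further source at this depth. Scaled by S100a8 and S100a9 in the median mature B-like cell, it came to 57.7 and 52.0 ribosomal protein UMIs per cell in Idh1-R132H and 40.2 and 48.7 in Idh1-WT, against the 78 to 93 counted in the median Retnlg-high cell.

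**Figure D2:**
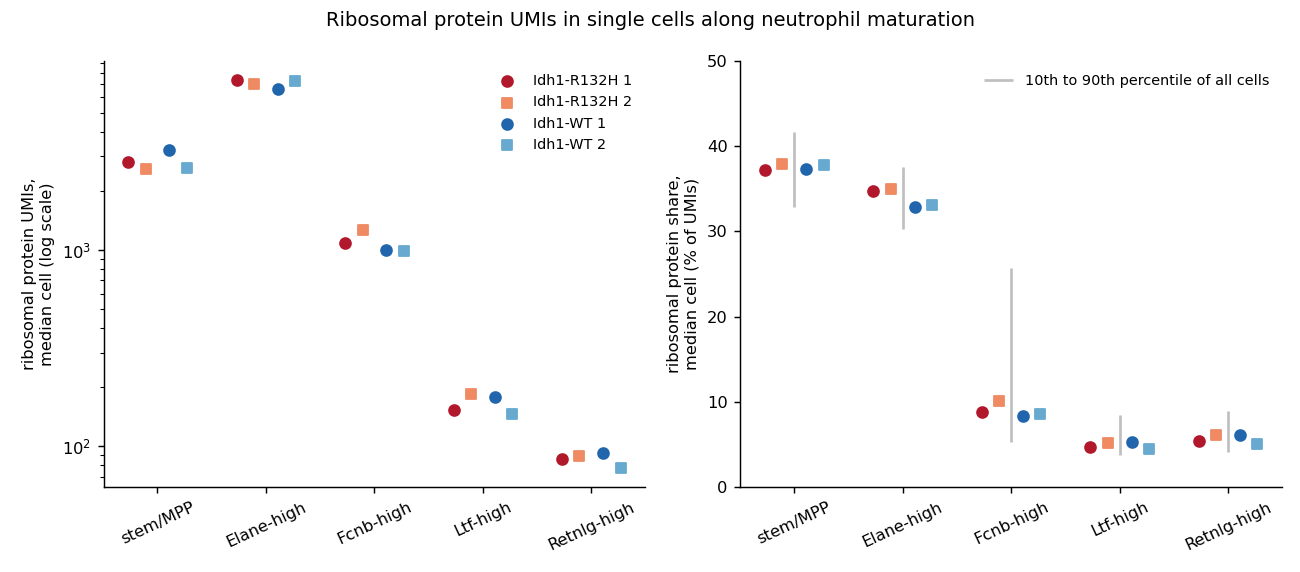
Left, ribosomal protein UMIs of the median cell (log axis) in the 5 stages of neutrophil maturation; right, the ribosomal protein share of the median cell (percent of UMIs, linear axis from 0), with grey lines from the 10th to the 90th percentile of all cells. Points are libraries, red and orange for Idh1-R132H and dark and light blue for Idh1-WT; the median cell averaged 7058 UMIs in Elane-high and 86.5 in Retnlg-high cells.

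Gene by gene, nearly all ribosomal protein genes fell between the Elane-high and the Retnlg-high group. UMIs were summed per library and stage and tested with edgeR's quasi-likelihood test with the library as a block and Benjamini-Hochberg adjustment over 9012 genes (adjusted p under 0.05), so a fall means a lower share of the messenger RNA after TMM scaling, not a count per cell. Of the 86 symbols 80 fell and 1 rose, where 62.7% of all genes changed (33.6% of all genes downward, 29.1% upward). The median log2 change was -1.31 for these genes and -0.24 for all genes. The distance between both medians was -1.08 log2 units with TMM, RLE or DESeq2 size factors and with library totals. With library totals in place of TMM the median of all genes moved to -0.86, and that of the ribosomal protein genes to -1.93.

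By step, 59 of 86 symbols rose and 1 fell between stem and multipotent progenitor-like and Elane-high cells, where 75.6% of all genes changed (42.6% upward, 33.1% downward). The median rise was 0.25 against 0.08 for all genes; with library totals the medians were -0.10 and -0.26, and 6 symbols rose and 19 fell. The symbol that fell in the TMM fit was Rps14 (log2 change -0.25, edgeR adjusted p 0.00134), a small-subunit protein whose loss impairs red cell formation. Without library Idh1-R132H 2, 28 rose and 3 fell.

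At the step to the Fcnb-high group 82 of 86 fell and 0 rose, against 52.3% of all genes changed (26.8% upward, 25.5% downward). The median change was -0.71 against -0.01. Rps2, a small-subunit protein near the messenger RNA entry, fell most, with a log2 change of -1.14. Rpl5, which carries the small ribosomal RNA of the large subunit into assembly, followed at -1.06, as did Rpl36 at -1.06. The 4 symbols that did not pass were the copies Rpl6l, Rps27rt, Rpl39l and Rpl3l. When free RNA scaled by the mean mature B-like cell was subtracted, 4 symbols fell by the test, while the summed share stepped by -20.9 and -20.6 percentage points in Idh1-R132H and -22.2 and -19.4 points in Idh1-WT, against -19.9 and -20.2 points and -21.8 and -19.1 points without the subtraction. That estimate was 705.7 free UMIs per cell in Idh1-R132H 1 and 231.5, 232.6 and 220.9 in Idh1-R132H 2, Idh1-WT 1 and Idh1-WT 2.

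From Fcnb-high to Ltf-high cells 76 fell and 1 rose, against 32% of all genes changed (17.2% upward, 14.8% downward), with a median of -0.41 against 0.05. The rise was that of Rpl3l, and Rps27, Rps9, Rps27a, Rpl37, Rps14 and Rpl36 were among the 9 that did not pass. With the same subtraction 1 fell by the test, and the step of the summed share was -8.55 and -5.15 points in Idh1-R132H and -0.916 and -6.73 points in Idh1-WT, against -5.92 and -4.64 points and -0.399 and -5.91 points without it. From Ltf-high to Retnlg-high cells 26 fell and 6 rose, against 23.1% of all genes changed (11.5% upward, 11.6% downward), with a median of -0.17 against -0.12. This last count moved with the setting: 2 fell with library totals, 5 with DESeq2, 58 without the cells over 3 times the median UMIs, and 8 and 7 without Idh1-R132H 2 and Idh1-WT 1.

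**Figure D3:**
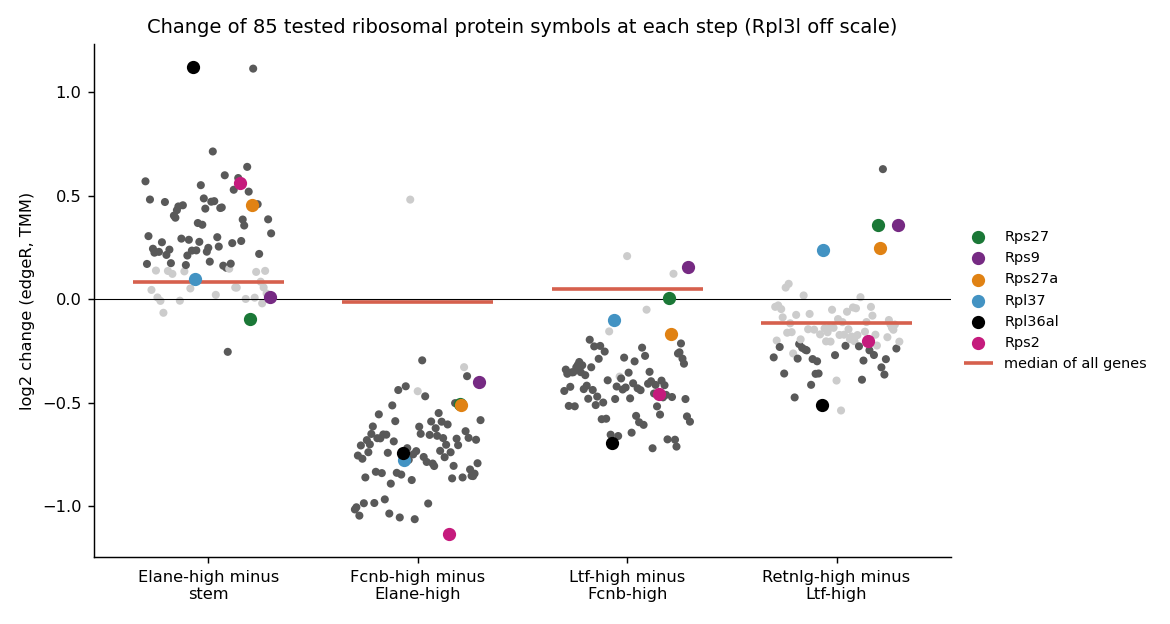
Log2 change of 85 ribosomal protein symbols (edgeR, TMM) at each of the 4 steps of neutrophil maturation, later minus earlier stage; dark grey points passed an adjusted p of 0.05, the red line is the median of all genes, and 6 genes are coloured. Rpl3l lies off the scale. The median of the symbols was -0.71 at the step from Elane-high to Fcnb-high and -0.17 at the step from Ltf-high to Retnlg-high.

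The stalk proteins, which recruit the translation factors that hydrolyse GTP, fell together. Rplp0, the base of the stalk, was at 1350 and 1427 CPM in Retnlg-high cells of Idh1-R132H and 1309 and 959 CPM in those of Idh1-WT, against 5810 and 5842 CPM and 5792 and 5683 CPM in Elane-high cells of the same libraries. No library overlapped between the stages. The log2 change was -1.58 ± 0.08 (SE, edgeR adjusted p 1.5e-27), and that of Rplp1 was -1.48 and that of Rplp2 -1.40.

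Among the small-subunit proteins, Rpsa, which also has a surface form known as the laminin receptor, changed by -1.38 on the log2 scale, and Rps19, the gene most often mutated in Diamond-Blackfan anaemia, by -1.28. Rps12 changed by -1.46. Rps2 was at 1018 and 1230 CPM in Retnlg-high cells of Idh1-R132H and 909 and 670 CPM in those of Idh1-WT, against 5145 and 5221 CPM and 5047 and 4900 CPM in the Elane-high cells. Its change of -1.80 ± 0.10 (adjusted p 1.3e-19) was the second lowest of all 86, and that of Rps28 was -1.68. The smallest called falls of small-subunit proteins were those of Rps16 (-0.98), Rps14 (-0.76) and Rps27a (-0.43). Rps27a is made as a fusion with ubiquitin.

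Among the large-subunit proteins, Rpl35 (-1.78), Rpl10 (-1.74), Rpl15 (-1.74), Rpl22 (-1.68) and Rpl36a (-1.67) were among those that fell most. Rpl10 is added late in the assembly of the subunit, and Rpl22 is dispensable for most translation but needed by developing T cells. Rpl5 and Rpl11, which with their RNA partner bind the ubiquitin ligase Mdm2, changed by -1.49 and -1.32. Rpl17 (-0.96), Rpl9 (-0.94) and Rpl37 (-0.64) were among those that fell least. Members of both subunits thus stood at both ends of the order.

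Rps27 and Rps9 departed furthest from the other abundant genes. Rps27, a small-subunit protein with a zinc finger, was at 2984 and 3295 CPM in Retnlg-high cells of Idh1-R132H and 2565 and 2359 CPM in those of Idh1-WT, against 4957 and 4903 CPM and 4452 and 4657 CPM in Elane-high cells. Its log2 change after TMM scaling was -0.14 (edgeR adjusted p 0.0899) and did not pass. The fall of Rps27 was called in 6 of 21 alternative fits, over which the change ranged from -1.22 to -0.06. Rps9, which sits near the decoding end of the small subunit, was at 3184 and 3099 CPM in Retnlg-high cells of Idh1-R132H and 2887 and 2466 CPM in those of Idh1-WT, against 4150 and 4223 CPM and 4126 and 4087 CPM. Its change of 0.11 (adjusted p 0.184) did not pass either, and with library totals it was -0.51.

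The share of a gene among all ribosomal protein UMIs does not depend on the scaling. Rps9 made up 1.22% ± 0.02 of them in Elane-high cells, 1.53% in Fcnb-high, 2.24% in Ltf-high and 3.14% ± 0.30 in Retnlg-high cells (SD, n = 4 libraries). Rps27 made up 3.01% ± 0.25 in Retnlg-high and 1.40% ± 0.04 in Elane-high cells, and Rps27a 3.07% ± 0.36 against 1.74% ± 0.01. In every library the Retnlg-high share of these 3 genes was above the Elane-high one. Without the cells over 3 times the median UMIs the Retnlg-high shares were 4.69% for Rps9, 4.23% for Rps27 and 4.24% for Rps27a. In the free RNA of the same libraries Rps9 made up 1.75%, Rps27 1.17% and Rps27a 1.77%. The part of free RNA in the Retnlg-high shares was not tested. The gain of Rps27 was not particular to neutrophils, since mature B-like cells had 3.40% ± 0.17, whereas Rps9 and Rps27a had 1.44% and 1.42% there. Nor was that of Rps9, which averaged 1.92% in monocyte-like and 1.30% in F13a1-high cells. In the same 2 groups Rps27 averaged 2.18% and 1.41%, and Rps27a 1.82% and 1.68%.

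Rpl37 behaved like these genes at the last step, with 2.41% ± 0.25 of ribosomal protein UMIs in Retnlg-high and 1.58% in Elane-high cells. Rps2 went the other way, with 1.01% ± 0.07 in Retnlg-high and 1.50% ± 0.01 in Elane-high cells. Rps27, Rps9, Rps27a, Rpl37 and the copies Rps27rt and Rpl3l were the 6 symbols that rose from the Ltf-high to the Retnlg-high group, with log2 changes of 0.36, 0.36, 0.25, 0.24, 0.63 and 1.38. Reads of Rps27rt cannot be assigned with certainty, because it is a near-identical copy of Rps27; the same holds for Rpl6l and Rpl6.

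**Figure D4:**
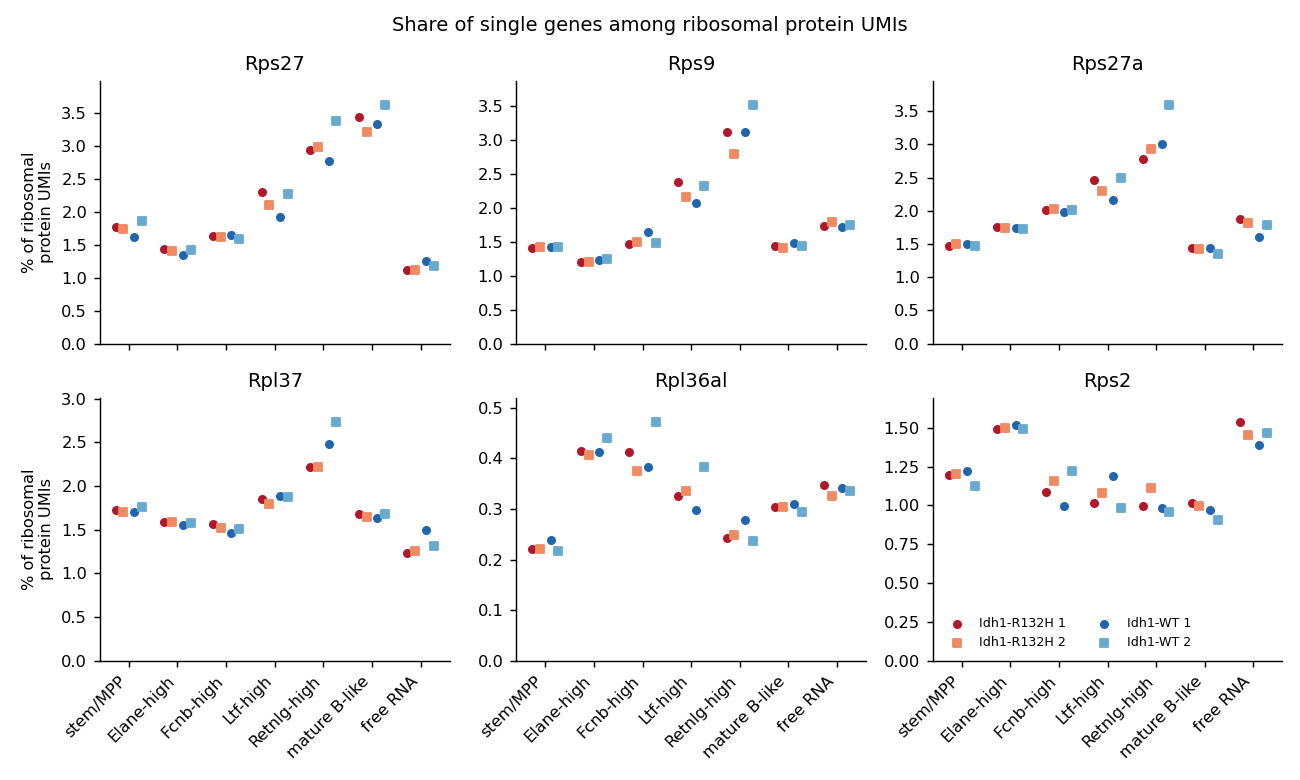
UMIs of 6 genes as a percentage of all ribosomal protein UMIs (vertical axes, linear from 0) in the 5 neutrophil stages, in mature B-like cells and in the free RNA of barcodes with at most 50 UMIs, 1 point per library. Rps9 averages 3.14% in Retnlg-high and 1.22% in Elane-high cells, and Rps2 averages 1.01% and 1.50% in the same groups.

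Rpl3l, the paralogue of Rpl3, was the only symbol with a called rise over the whole course in the TMM fit; 3 were called with RLE or DESeq2 scaling. It gave 11 and 9 UMIs in Retnlg-high cells of Idh1-R132H and 9 and 9 UMIs in those of Idh1-WT, which were 26.9 and 20.6 CPM against 17.2 and 24.5 CPM. In Elane-high cells it was at 0.783 and 0.747 CPM in Idh1-R132H and 0.129 and 0.184 CPM in Idh1-WT, with 11, 11, 2 and 2 UMIs. All 4 Retnlg-high libraries were above all Elane-high ones, and the log2 change was 6.09 ± 0.49 (SE, edgeR adjusted p 3.6e-18). The filter on low counts kept a gene by its level in any of the stages. At these Elane-high levels Rpl3l passed it only through later stages, where it was higher. The p-value and the lack of overlap are therefore no independent support for the rise. The same holds for its called rises at single steps. Rpl3 itself was at 1054 and 1137 CPM in Retnlg-high cells of Idh1-R132H and 894 and 608 CPM in those of Idh1-WT, with a log2 change of -1.47.

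As a share of Rpl3l plus Rpl3 UMIs, Rpl3l was at most 0.00872% in any library of stem and multipotent progenitor-like cells. Ltf-high cells had 1.12% and 0.551% in Idh1-R132H and 0.665% and 1.19% in Idh1-WT, and Retnlg-high cells 2.49% and 1.78% against 1.89% and 3.88%. An Rpl3l UMI was seen in 4.67% and 2.93% of Retnlg-high cells of Idh1-R132H and 3.03% and 4.05% of those of Idh1-WT. Rpl3l was also higher in monocyte-like cells than in their progenitors. Of all ribosomal protein UMIs it made up 0.0026% in monocyte-like and 0.00017% in F13a1-high cells, averaged over the libraries. The same averages were 0.025% in Retnlg-high and 0.00013% in Elane-high cells. Mature B-like, T or NK-like and dendritic cell-like cells had 0 UMIs of Rpl3l, which allows a share of up to 0.0607%, 0.0423% and 0.0565% of the pair. The mature B-like cells had a similar depth to the Retnlg-high cells, with 1821 UMIs in the median cell against 1500. The counts are small in every library. These limits cover counting error only.

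Rpl39l, the paralogue of the small exit-tunnel protein Rpl39, was counted unevenly between the libraries. All kept cells together gave 87 and 79 UMIs of it in Idh1-R132H and 706 and 140 UMIs in Idh1-WT. They came from 36 and 35 cells in Idh1-R132H and from 265 and 57 cells in Idh1-WT. In Elane-high cells the counts were 14 and 25 against 261 and 75 UMIs, with a log2 change of -3.17 for Idh1-R132H over Idh1-WT that did not pass (edgeR adjusted p 0.481). In stem and multipotent progenitor-like cells they were 13 and 13 against 122 and 5 UMIs. Idh1-WT 1 was the highest library in both groups. With 1 library left out the log2 change in Elane-high cells lay between -3.62 and -2.32, and whether it passed depended on the library. Cells with an Rpl39l UMI made up 0.762% and 1.11% of Elane-high cells in Idh1-R132H and 7.42% and 4.63% in Idh1-WT. In Ltf-high cells they made up 0% and 0.277% against 4.47% and 2.15%. Both Idh1-WT libraries lay above both Idh1-R132H libraries in the 4 groups from Elane-high to Retnlg-high, on 1 to 68 such cells a library in Idh1-WT. In the stem and multipotent progenitor-like group the libraries overlapped, with 1.20% and 0.685% against 8.10% and 0.423%.

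The other paralogues changed their share with cell type in a similar way in all 4 libraries. Rps27l, which is known as a target of the tumour suppressor Trp53, made up 7.85% and 8.04% of Rps27l plus Rps27 UMIs in Idh1-R132H and 9.25% and 7.70% in Idh1-WT among stem and multipotent progenitor-like cells. Elane-high cells had 16.2% and 16.5% against 18.2% and 17.5%, Retnlg-high cells 5.50% and 6.97% against 7.33% and 6.88%, and mature B-like cells 3.94% and 4.49% against 3.77% and 3.30%. The Elane-high libraries all lay above those of the 3 other groups, but other progenitors were as high. Of all ribosomal protein UMIs, Rps27l averaged 0.288% in Elane-high, 0.298% in F13a1-high and 0.287% in erythroid progenitor-like cells. Rps27 averaged 1.40%, 1.41% and 1.43% in the same order. The log2 change of Rps27l was 1.11 from stem and multipotent progenitor-like to Elane-high cells and -1.67 from Elane-high to Retnlg-high cells, both called.

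Rpl36al, an autosomal copy of X-linked Rpl36a, made up 41.4% and 37.7% of the pair in monocyte-like cells of Idh1-R132H and 38.3% and 39.5% in those of Idh1-WT. Stem and multipotent progenitor-like cells had 17.8% and 17.6% against 18.7% and 17.1%, Elane-high cells 28.4% and 27.8% against 28.4% and 29.6%, and Retnlg-high cells 22.6% and 24.0% against 25.5% and 27.7%. Every monocyte-like library lay above every library of these groups. Rpl36al also fell most of all 86 symbols from Elane-high to Retnlg-high cells, at 247 and 274 CPM in Retnlg-high cells of Idh1-R132H and 257 and 166 CPM in those of Idh1-WT, against 1429 and 1418 CPM and 1373 and 1445 CPM (log2 change -1.95 ± 0.10, adjusted p 9.9e-29).

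Rpl22l1, the paralogue that Rpl22 represses, moved less. It made up 56.9% and 54.8% of the pair in Idh1-R132H and 55.1% and 55.7% in Idh1-WT among stem and multipotent progenitor-like cells, and 52.3% and 50.7% against 51.2% and 50.6% in Elane-high cells. In monocyte-like cells it averaged 43.2% ± 1.50 (SD, n = 4 libraries). Both Rpl22l1 and Rpl22 fell by 1.68 on the log2 scale from Elane-high to Retnlg-high cells. Rpl7l1, a nucleolar relative of Rpl7 involved in assembly, made up 3.26% ± 0.21 of its pair in stem and multipotent progenitor-like, 4.65% ± 0.21 in Elane-high and 5.72% ± 0.76 in Fcnb-high cells (SD, n = 4 libraries).

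The genotype comparison asks whether Idh1-R132H marrow differs from Idh1-WT marrow within the same cell group. In the Elane-high group 7 of 86 symbols rose in Idh1-R132H and 0 fell, against 0.628% of all genes called (0.209% upward, 0.418% downward). The median log2 change was 0.08 against 0.01 for all genes, and 82 of 86 were above 0. In 71 symbols both Idh1-R132H libraries lay above both Idh1-WT libraries and in 3 below, against 19.1% and 23.7% of all genes tested. The summed share was 1.60 percentage points higher in Idh1-R132H, at 34.7% ± 0.25 against 33.1% ± 0.27 (SD, n = 2 each). A sum over the list was not tested.

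The 7 genes were small in effect and did not overlap between genotypes. Rplp1, a stalk protein, was at 4426 and 4527 CPM in Idh1-R132H and 3861 and 3992 CPM in Idh1-WT (log2 change 0.21 ± 0.03, SE, edgeR adjusted p 0.000754). Rps12 was at 3345 and 3394 CPM against 3020 and 3016 CPM, with a log2 change of 0.18 (adjusted p 0.00473). Rps26, a protein near the messenger RNA exit, was at 2748 and 2827 CPM against 2508 and 2578 CPM, with a change of 0.15 (adjusted p 0.0243). Rpl41, the smallest ribosomal protein, and Rpl36 changed by 0.15 and 0.14 (adjusted p 0.0258 and 0.0339). Rps27 and Rpl39 both changed by 0.13 (adjusted p 0.0415 for each).

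Leaving out 1 library changed these calls. Without Idh1-R132H 1 only Rplp1 rose, and without Idh1-R132H 2 none did; without Idh1-WT 1, 12 symbols rose and 1 fell, but of the 7 only Rpl36, Rplp1, Rps12 and Rps26 were among them. Without Idh1-WT 2, 9 rose, all 7 included, and 1 fell. With the low copies of shared barcodes left out all 7 were called, and with every shared barcode left out 3 were (Rplp1, Rps12 and Rps26). Beside this result, 2 of 16 proliferation genes fell in Elane-high cells of Idh1-R132H, where 0.418% of all genes fell. They were Rrm2, by 0.22, and Ccnb1, by 0.27 on the log2 scale (edgeR adjusted p 0.0238 and 0.0442). The direction of the other genes of this list is not given here. The Elane-high marker list summed to 42952 and 42921 CPM in Idh1-R132H and 43926 and 45004 CPM in Idh1-WT, and the F13a1-high list to 2433 and 2514 CPM against 2079 and 2295 CPM. Their part in the result was not tested.

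B precursor-like cells gave 3 further rises in Idh1-R132H and no fall, of 84 symbols tested, against 0.525% of all genes called (0.388% upward, 0.137% downward). Rps2 was at 4656 and 4633 CPM in Idh1-R132H and 3830 and 3695 CPM in Idh1-WT (log2 change 0.35 ± 0.06, edgeR adjusted p 0.000884). Rpl41 was at 6657 and 6530 CPM against 5549 and 5738 CPM (0.26, adjusted p 0.00704), and Rpl38, which takes part in selective translation of Hox messages in the mouse embryo, at 3408 and 3337 CPM against 2830 and 2845 CPM (0.29, adjusted p 0.0149). DESeq2 called 0 of these, and so did edgeR without the cells over 3 times the median UMIs, which held 47.4% of the ribosomal protein UMIs of this group. Without Idh1-R132H 1 or Idh1-R132H 2, 1 symbol rose, and without Idh1-WT 2, 6 did. Elane-high markers summed to 5103 and 3588 CPM in the B precursor-like cells of Idh1-R132H and 2616 and 2013 CPM in those of Idh1-WT; their part was not tested. Dendritic cell-like cells gave 1 rise of 84, against 0.64% of all genes called (0.213% upward, 0.427% downward). It was that of Rpl28, at 2721 and 3052 CPM in Idh1-R132H and 2174 and 2337 CPM in Idh1-WT (0.37, adjusted p 0.0283). DESeq2 called 0, and so did edgeR without Idh1-R132H 2, without Idh1-WT 1 and without Idh1-WT 2.

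In the other 12 groups 0 symbols were called by edgeR or by DESeq2. The background there was 0% of all genes in the Fcnb-high and T or NK-like groups, 0.0297% in the Ltf-high, 0.0905% in the Retnlg-high and 0.0421% in the F13a1-high group. It was 0.072% in the stem and multipotent progenitor-like, 0.0776% in the lymphoid-primed, 0.0809% in the erythroid, 0.161% in the megakaryocyte, 0.215% in the basophil or mast, 0.264% in the monocyte-like and 0.285% in the mature B-like group. At an unadjusted p under 0.05 stood 34 of 84 symbols in the Retnlg-high group (310 of all 3314 genes), 15 of 84 in the Fcnb-high (282 of 5201), 10 of 84 in the mature B-like (278 of 3856) and 8 of 85 in the F13a1-high group (577 of 9491). The count was 1 to 6 in the stem and multipotent progenitor-like, lymphoid-primed, monocyte-like, erythroid, megakaryocyte and basophil or mast groups, and 0 in the Ltf-high and T or NK-like groups.

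Retnlg-high cells had the largest median change, 0.32, with 82 of 84 symbols above 0; both Idh1-R132H libraries lay above both Idh1-WT libraries in 71 symbols, against 26.8% of all genes. No symbol passed in this group with all libraries, but without Idh1-WT 1 many rose. The share of all genes called in that fit is not given here. The summed share there differed by 2.51 percentage points, but by 0.201 points without the cells over 3 times the median UMIs and by 0.180 points in the median cell, where the libraries overlapped. Fcnb-high cells had a median change of 0.15 with 80 of 84 above 0, and some symbols rose without Idh1-WT 2. F13a1-high cells had a median of 0.07, and some symbols rose without Idh1-WT 1. For these fits too the share of all genes called is not given. In stem and multipotent progenitor-like, Ltf-high and T or NK-like cells the median was -0.01 each.

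Whether the loss over maturation differed between genotypes was tested by the interaction term. No symbol of 86 was called, against 0.0651% of all genes, by edgeR or DESeq2; 17 had an unadjusted p under 0.05, as did 627 of all 10760 genes. The median of the difference was 0.23 against 0.04 for all genes, and 80 of 86 were above 0. Without Idh1-WT 1 some symbols were called, but the share of all genes called in that fit is not given here.

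**Figure D5:**
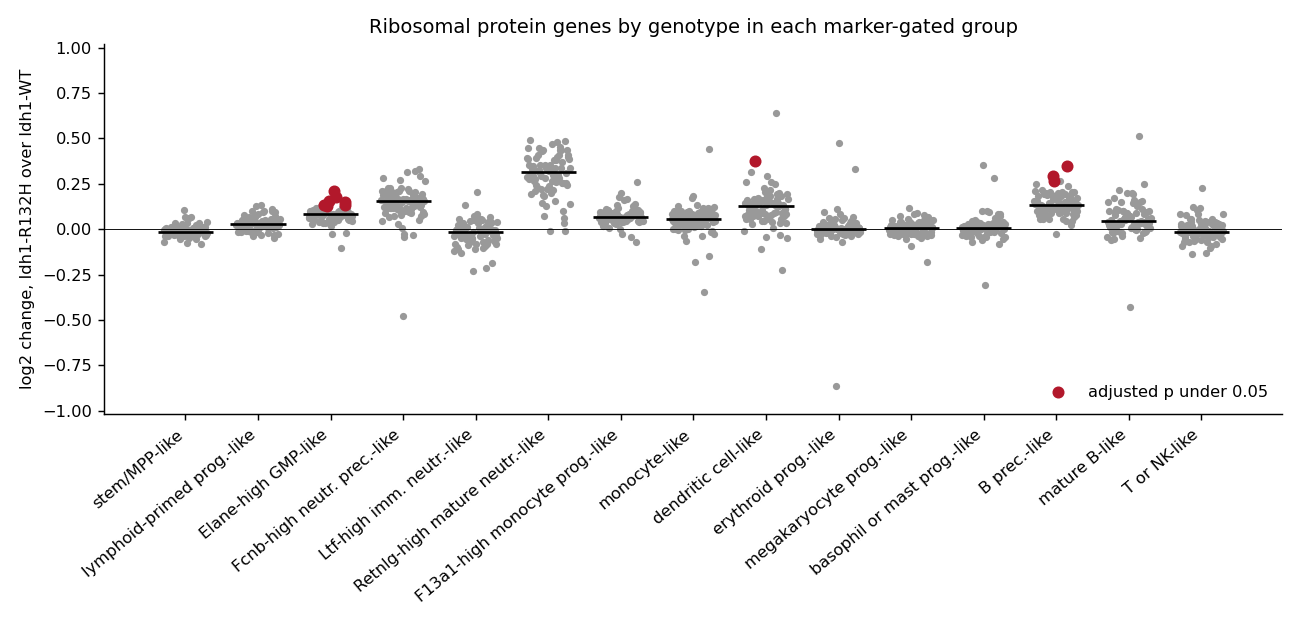
Log2 change of each ribosomal protein symbol in Idh1-R132H over Idh1-WT (edgeR, TMM) in the 15 marker-gated groups; red points passed an adjusted p of 0.05, grey points did not, and black lines are the medians. Red points are seen in Elane-high (7), B precursor-like (3) and dendritic cell-like cells (1). Rpl39l in 3 groups, Rpl3l in Elane-high and Rpl6l in mature B-like cells lie beyond the axis and are not drawn.

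The genes that make and feed the ribosome were read from lists beside the ribosomal proteins. Among ribosomal proteins with other symbols, Fau is made as a fusion with a ubiquitin-like protein. After TMM scaling it rose by 0.40 on the log2 scale from Elane-high to Retnlg-high cells (edgeR adjusted p 1.4e-06). Gnb2l1, which encodes Rack1, fell by 1.57. With library totals the median of all genes and Rps9 moved down in this comparison, as given above. The value of Fau with library totals is not given here, so its rise holds for TMM scaling only. Fau joins Rps27, Rps9 and Rps27a as a small-subunit protein at the upper end of the order.

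Ribosome assembly factors fell in 36 of 37 tested genes with 0 rises over the same course, against the 62.7% of all genes changed, with a median of -1.47. Npm1, the most abundant nucleolar protein, changed by -1.48 and nucleolin (Ncl) by -1.47. Most of this lay at the first step: from Elane-high to Fcnb-high cells 33 of 37 fell with a median of -1.45, whereas 5 fell and 2 rose at the next step and 1 fell at the last. Ribosomal protein genes, by contrast, had medians of -0.71, -0.41 and -0.17 at these 3 steps. In the same first step 12 of 16 proliferation genes rose, Mki67 by 1.57 and Rrm2 by 1.31, and 3 fell. All 16 fell at the step to Ltf-high cells. Of all genes, 26.8% rose and 25.5% fell at the first of these steps, 17.2% and 14.8% at the next, and 11.5% and 11.6% at the last.

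Over the whole course from Elane-high to Retnlg-high cells 33.6% of all genes fell and 29.1% rose. RNA polymerase I genes gave 8 falls and 1 rise of 11, with Polr1c at -1.53 and Polr1a at 1.60. Translation factors with TOP messages gave 18 falls and 1 rise of 19, with a median of -1.10; Eef1a1, which brings transfer RNAs to the ribosome, changed by -1.29. Of the other translation factors 17 fell and 2 rose of 19, with the helicase Eif4a1 at -1.69 and the start-codon factor Eif1 at 1.41. Mitochondrial ribosomal proteins fell in 68 and rose in 2 of 76, with a median of -1.27, and Mrpl33 was one of the rises at 1.53. Among the 18 growth-control genes 8 rose and 3 fell. Myc, which drives ribosome synthesis, fell by 1.71 from Elane-high to Fcnb-high cells, and its antagonist Mxd1 rose by 7.27 from Elane-high to Retnlg-high cells.

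By genotype, in Elane-high cells, assembly factors had 0 calls of 37 and a median of -0.06, with 6 above 0. Mitochondrial ribosomal proteins had 0 of 77 and a median of -0.03, with 19 above 0, and translation factors with TOP messages had 0 of 19 and a median of 0.03, with 13 above 0. Of all genes in this fit 0.628% were called and 51.9% were above 0, with a median of 0.01. At that share, 0 calls in lists of this size do not set them apart from other genes. The median of the 86 cytosolic ribosomal protein symbols was 0.08, and the difference between lists was not tested.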

How the data were processed

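Single-cell RNA libraries of 4 mice were analysed from the raw UMI count matrices as deposited, one whole-number count per gene and barcode with no normalization. The submitters' processing notes name Cell Ranger 4.0.0, Seurat and the build GRCm38 (mm10); which filters were applied before the counts were deposited is not given in the sources used here. A barcode counted as a cell from 500 UMIs and 200 genes upward, provided that no more than 10% of its UMIs were mitochondrial. Each cell joined the group whose markers scored highest (score at least 0.3, margin at least 0.1), with values normalised by the UMIs of all genes but the ribosomal protein genes. Doublets were not called by a tool; cells of high UMI counts were left out in alternatives. UMIs were summed per library and group where every library had at least 20 cells. CPM scale the UMIs of each library and group to 1 common total and are not per length, so levels of different genes are not compared by them.

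Sums were tested with edgeR 4.0.16 (TMM, filterByExpr, robust quasi-likelihood fit, Benjamini-Hochberg over all genes tested, adjusted p under 0.05) in R 4.3.3. The genotype fits used 2 libraries against 2, the stage fit the library as a block, and the interaction both. DESeq2 1.42.0 was an alternative, beside other scalings, filters, gates and libraries left out. The code was tested on simulated data. Intervals and limits from a count of 0 (3 counts) cover counting error only. Named genes were the paralogue pairs, all genotype calls, the 10 lowest and 10 highest log2 changes from Elane-high to Retnlg-high cells among genes whose average log2 CPM reached 5, a fixed set of ribosomal proteins, and up to 4 genes per list by p; other names were chosen after their values were seen. The members and lists were chosen with earlier results of these data known. Some genes that this rule names are not reported here.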

Additional observations from a re-analysis of the deposited data

Results flagged for a closer look

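The step of the summed ribosomal protein share from Ltf-high to Retnlg-high cells went in opposite directions in the genotypes. It was 1.48 and 1.08 percentage points in Idh1-R132H and -1.85 and -0.850 points in Idh1-WT, a difference of 2.626 points between the means, and this difference was not tested. In the median cell the step was upward in all 4 libraries, by 0.752 and 0.930 points in Idh1-R132H and by 0.808 and 0.611 points in Idh1-WT. Without the cells over 3 times the median UMIs it was downward in all 4, at -1.64 and -0.399 points in Idh1-R132H and -0.626 and -0.365 points in Idh1-WT.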

How the results depend on the processing

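Of the values that answer a comparison, 412 stayed close to the one reported, 99 moved and 1 reversed over the alternatives. This tally does not measure stability. A share was counted as close when it moved by less than the SD between libraries, which leaving out 1 library cannot exceed. Counts that were 0 in every fit, such as the rises from Elane-high to Fcnb-high cells, were counted as close too. The falls from Elane-high to Fcnb-high and from Elane-high to Retnlg-high cells ranged over 81 to 83 and 80 to 81 symbols when 1 library was left out. The settings that left out cells over 3 times the median UMIs, scaled free RNA by the median cell, did both, took the median over cells or left out shared barcodes were chosen after seeing the data. A left-out library leaves 1 of its genotype, assumed to vary like the others. The share of all genes called in such genotype fits is not given here, so their counts show only that calls changed. The cause of the moves below was not tested.

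Rises by genotype, 11 over the 15 groups, were 34 with totals that leave the ribosomal protein genes out, 17 with free RNA subtracted, 7 with DESeq2, 7 without cells over 3 times the median UMIs and 5 without the top 5% of UMIs. Falls by genotype, 0 in all, were 3 with no filter, 1 without the top 5% of UMIs and 1 with the replicate block. The replicate numbers are shared by the genotypes but did not pair the libraries (correlation of deviations -0.0569 over 11960 genes); with the replicate block 3 symbols rose in Elane-high cells in place of 7. These 7 were 29 with totals without the ribosomal protein genes, 14 with free RNA subtracted, 13 with no filter, 4 with a minimum of 1000 UMIs, 4 with a gate margin of 0.3, 3 without the top 5% of UMIs and 3 without shared barcodes. Leaving out 1 library gave 1 to 94 rises and 0 to 5 falls over all groups, 0 to 12 rises in Elane-high cells, and 0 to 15 calls of the interaction (15 without Idh1-WT 1). The 94 came without Idh1-WT 1, and 36, 4 and 1 without Idh1-WT 2, Idh1-R132H 1 and Idh1-R132H 2.

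From stem and multipotent progenitor-like to Elane-high cells, the 59 rises and 1 fall were 39 and 3 with RLE, 38 and 4 with DESeq2, 6 and 19 with library totals, 5 and 26 with totals without the ribosomal protein genes, 4 and 0 with free RNA subtracted, and 37 and 9 without cells over 3 times the median. Rises were 26 with free RNA of the median cell subtracted and 14 with both; with 1 library left out they were 28 to 66, and falls 1 to 3. With free RNA subtracted, 4 symbols fell from Elane-high to Fcnb-high and 1 from Fcnb-high to Ltf-high cells, while the summed share stepped down in every library at both steps; rises from Fcnb-high to Ltf-high cells were 2 with DESeq2, 2 with a gate margin of 0.3 and 2 without cells over 3 times the median. From Ltf-high to Retnlg-high cells, the 6 rises were 3 with no filter, 1 with free RNA subtracted and 1 with both settings, and the 26 falls were 4 with RLE, 2 with library totals, 2 with totals without the ribosomal protein genes, 41 with no filter, 5 with DESeq2, 9 with 1000 UMIs, 10 without the top 5%, 12 with free RNA subtracted, 58 without cells over 3 times the median, 54 with free RNA of the median cell and 78 with both. Leaving out 1 library gave 3 to 6 rises and 7 to 27 falls. From Elane-high to Retnlg-high cells the single rise was 3 with RLE, 3 with DESeq2, 2 with a gate margin of 0.3, 3 without cells over 3 times the median, and 1 to 2 with 1 library left out.

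The share in stem and multipotent progenitor-like cells (36.8%) was 37.2% with a gate score of 0.6, 37.2% with free RNA subtracted and 37.6% over cells. The Fcnb-high share was 8.97% over cells. The Ltf-high share was 7.89% with free RNA subtracted, 6.47% without cells over 3 times the median, 5.45% with both settings and 4.87% over cells; the Retnlg-high share was 5.06%, 5.71%, 2.89% and 5.64% in the same order, and 7.31% with free RNA of the median cell. The Elane-high difference by genotype (1.60 points) was 2.01 without shared barcodes and 1.89 over cells. The Retnlg-high difference (2.51 points) was 0.104 with free RNA subtracted, 0.201 without cells over 3 times the median, 0.180 over cells and -0.376 with both settings. In Retnlg-high cells the Rps27l share was 3.50% with free RNA subtracted, 5.10% without cells over 3 times the median, 4.98% with free RNA of the median cell and 2.33% with both, and the Rpl3l share was 34.4%, 5.65%, 5.60% and 77.9% in the same order, on at most 11 UMIs a library. The Rpl36al share in monocyte-like cells was 41.5% without cells over 3 times the median and 42.1% with both.

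Rps9 from Elane-high to Retnlg-high cells reversed to -0.51 with library totals, -0.97 with totals without the ribosomal protein genes, -0.11 with no filter, -0.18 with free RNA subtracted and -0.052 with both settings, and Rps27rt to -0.20 and -0.65 with the first pair of these.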
